A study of Mus musculus with 2 samples.

Results

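Expression of the proteasome genes was compared between cortical fibers and epithelium of the mouse lens. Members were all genes on the array whose single annotated symbol begins with Psma to Psmg and a number, without the interferon-induced core genes Psmb8 and Psmb9. This gave 45 probes for 44 genes, out of 13709 genes on the array. Of these genes, 42 encode subunits, activators, inhibitors or assembly chaperones of the proteasome. The other two, Psmc3ip (a meiotic recombination factor) and Psme3ip1 (a binding partner of a proteasome activator), match by name only. They were kept in the counts and are marked where they matter. Of genes listed for the same roles, Psmb11, Psmc2, Psme2b, Psme4 and Psmg4 were not analysed here.

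Poly(A) RNA came from lenses of 5 mice aged 13 days, which forceps divided into cortical fibers and the capsule carrying the epithelium, and each of the 2 preparations was read on 1 array (a 1-colour CodeLink mouse bioarray). No genotype, strain, transgene or treatment is named for either group. The sources used here do not say whether the 5 mice were pooled. The lens is named in titles, source names and the design text, but the longer sample description is written for liver of the embryo.

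Values are deposited intensities in units of the array median, and a floor was set at 0.5 of that median. Differences are log2 cortex minus log2 epithelium, so that a positive difference means a brighter signal in cortex. The limit for calling a gene higher in a group was a 3-fold brighter signal there, at or above that array's median. With 1 array per group there was no replicate, so no difference below has a test or a p-value. The only error to be had was how far probes of the same gene differed, whose median SD was 0.59 and pooled SD 1.10 on the log2 scale over 558 genes. In such bulk RNA, a smaller share of cells that express a gene and less of its RNA per cell cannot be told apart.

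The labels were examined against lens markers. Of 7 fiber markers 6 were at least 3-fold brighter in cortex, and of 6 epithelial markers all 6 were at least 3-fold brighter in epithelium. The 5 measured leukocyte and endothelial markers lay below the floor on each array, and 5 liver markers were at the floor or below the array median. Of 2 erythroid markers, Hbb-bh1 lay below the floor on each array and Hba-a1 stood at 1.39 in cortex and 1.79 in epithelium. Of 7 ciliary body and pigment cell markers, 4 were at least 3-fold brighter in epithelium and 1 in cortex, with summed intensities of 144 and 12.4. The part of such neighbouring tissue in the proteasome values was not tested.

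The 26S proteasome is the main protease of the cytosol and nucleus for proteins tagged with ubiquitin. Its core particle is a stack of rings in which outer rings of alpha subunits gate the entrance and inner rings of beta subunits hold the proteolytic sites. A regulatory particle caps the core: its base unfolds substrates with a ring of ATPases, and its lid removes the ubiquitin chain. In the lens the ubiquitin-proteasome pathway acts in the epithelium and in differentiating fibers, where cyclins, transcription factors and damaged proteins are among its substrates.

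The proteasome genes did not all differ in the same direction between the 2 arrays. Without replicates, the spread among them cannot be told from the spread between probes. Of the 44 members, 28 had a brighter signal in cortex and 15 in epithelium. Of all 13709 genes 40.1% were brighter in cortex, and of those above the floor on both arrays 51.0%. The median difference was 0.47 against 0.00 over all 13709 genes. Only Psmd3 and Psmc4 were at least 3-fold higher in cortex, a share of 4.55% of members against 9.41% of all genes. In the other direction Psme1, Psme2 and the name match Psmc3ip were at least 3-fold higher in epithelium, or 6.82% of members against 8.17% of all genes. At 2-fold, 12 members were higher in cortex (27.3%, against 16.4% of all genes) and 4 in epithelium (9.09%, against 15.3%). This balance turned with the scaling, to 2 and 9 after quantile normalization, 4 and 6 after loess and 0 and 13 after ribosomal centring. The median of members was then -0.13, 0.02 and -0.34. The array as a whole was also affected. Of all genes past 3-fold, 53.5% lay in cortex as deposited, and 46.6%, 53.9% and 18.5% after these 3 scalings. Of the members, 40 were above the floor on both arrays, Psma8, Psmc3ip and Psme3ip1 on 1 array alone, and Psmd11 on neither.

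**Figure D1:**
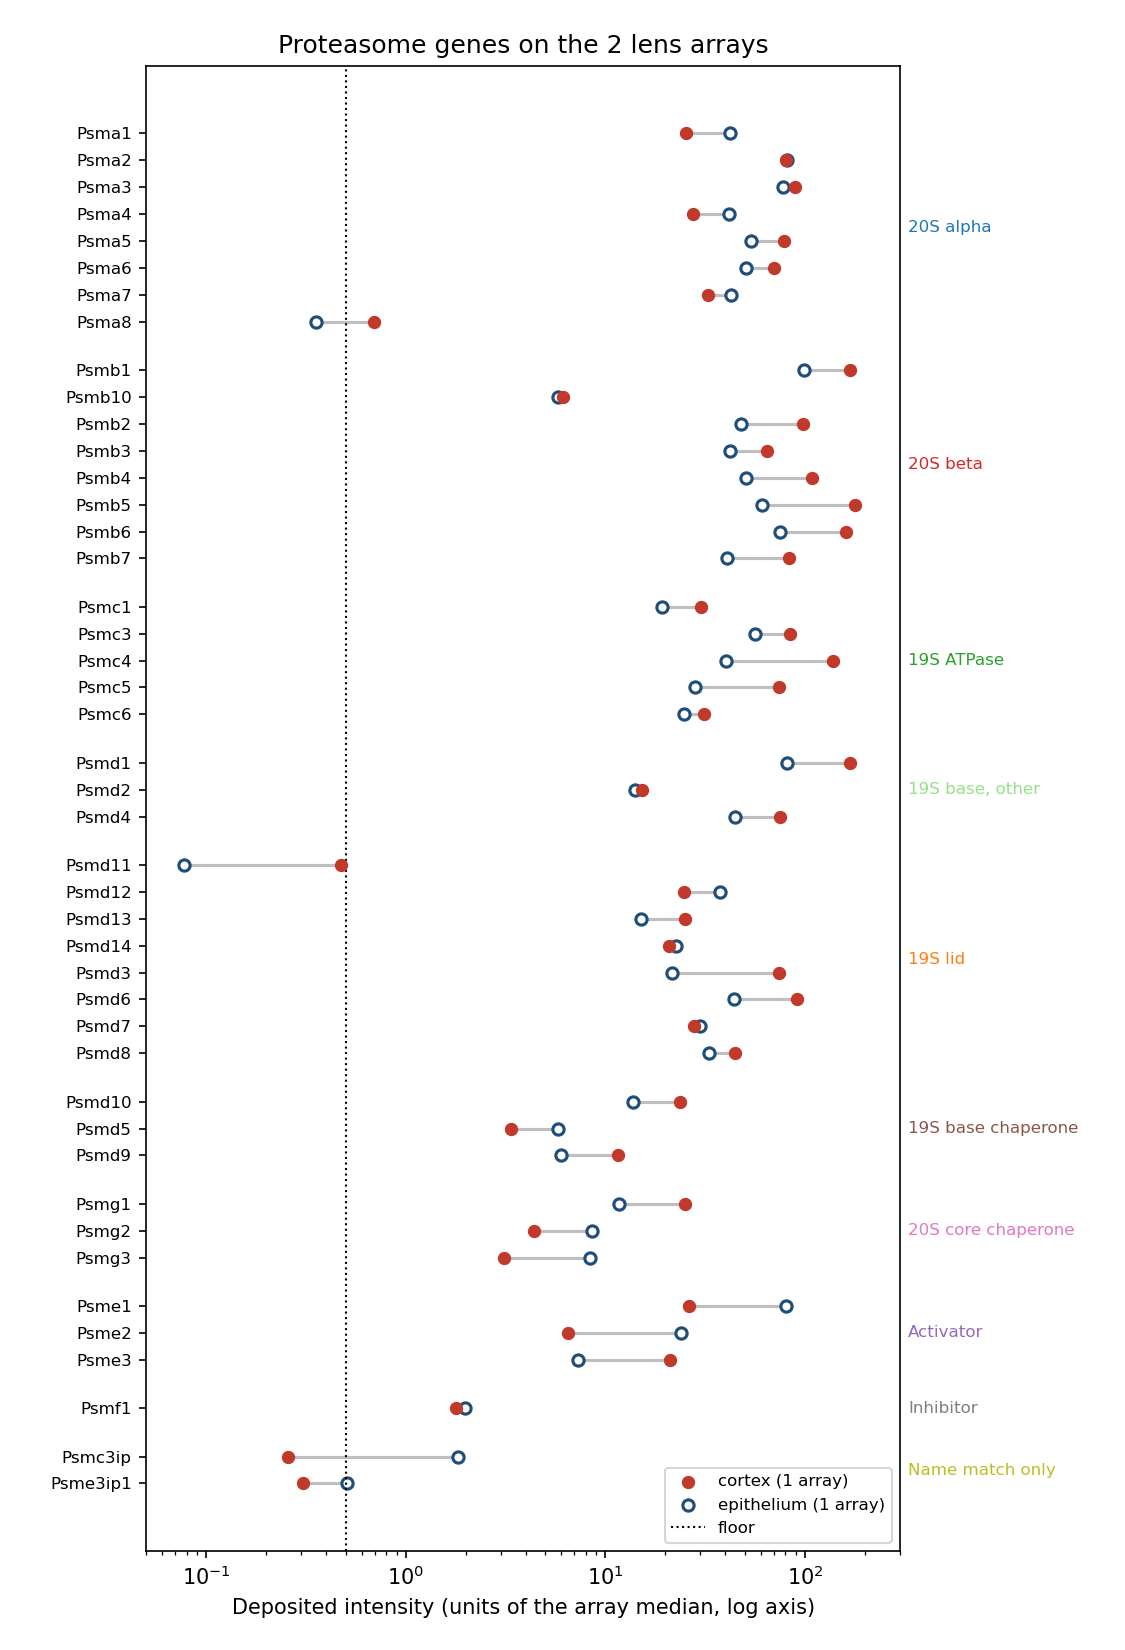
Deposited intensity of each proteasome gene (horizontal log axis, in units of the array median) on the cortex array (filled points) and the epithelium array (open points), grouped by role; the dotted line is the floor. All of Psmb1 to Psmb7 lie further right in cortex, while Psme1 and Psme2 lie further right in epithelium, with 80.8 against 26.3 for Psme1.

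Brightness itself went with the difference, and most proteasome genes are bright. Over other genes measured on both arrays, the median difference climbed from -0.16 at a mean log2 intensity of 0 to 1, through 0.16 at 4 to 5, to 0.76 at 6 to 7. Each member was therefore also set against the median of all other genes within 0.5 of its own mean log2 intensity, called equally bright genes here. Of the 43 members above the floor on at least 1 array, 23 lay above that median and 20 below it, with a median deviation of 0.04. The excess of members brighter in cortex was thus shared by genes of their brightness. Among the 1636 other genes whose mean log2 intensity lay within the quartiles of the members, the median difference was 0.25. Of these genes 58.4% were brighter in cortex. In cortex 18.2% passed 3-fold and in epithelium 6.42% did, while 28.2% and 13.9% passed 2-fold. The differences of the 40 members above the floor on both arrays had an SD of 0.91. For the 22 members within those quartiles it was 0.92, against 1.54 for the 1636 other genes there.

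**Figure D2:**
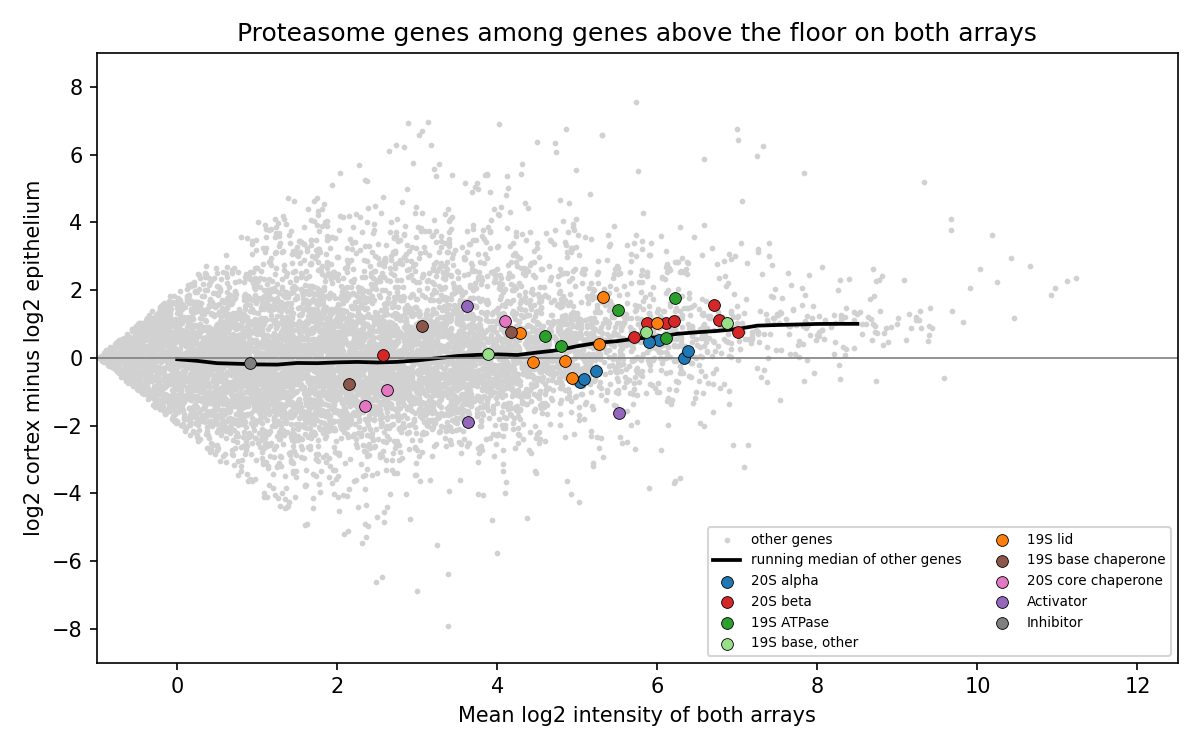
Difference between the arrays (vertical, log2) against mean log2 intensity (horizontal) for genes above the floor on both arrays, with the running median of other genes as a black line and proteasome genes coloured by role. The line rises with brightness, the alpha subunits lie below it and Psme1 and Psme2 lie furthest below it among the members.

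The alpha subunits, which form the gated outer rings of the core, were close to equal between the arrays. Psma2 stood at 80.8 in cortex and 81.0 in epithelium. Psma3 stood at 89.5 and 78.2, Psma5 at 78.4 and 53.9, and Psma6 at 69.9 and 50.8. These 3 genes were brighter in cortex, by at most 1.45-fold. Psma1 stood at 25.4 in cortex and 41.9 in epithelium, Psma4 at 27.4 and 41.9, and Psma7 at 32.8 and 42.9. These were brighter in epithelium, by 1.65-fold, 1.53-fold and 1.31-fold. The 7 subunits of the common core had a median difference of 0.00 and ran from -0.72 to 0.54. None reached 2-fold, which 16.4% of all genes passed in cortex and 15.3% in epithelium. Psma8, the testis form of an alpha subunit, was near the floor (0.696 in cortex, below the floor in epithelium), so its difference is not known. Against equally bright genes all 7 common alpha subunits lay on the epithelial side, with deviations from -1.09 (Psma1) to -0.07 (Psma5).

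The beta subunits, which form the inner rings, were all brighter in cortex. The 3 that carry the proteolytic sites come first. Psmb5, the chymotrypsin-like subunit, stood at 179 in cortex against 61.2, and at 2.93-fold lay just under the limit. Psmb6, the caspase-like subunit, stood at 160 and 74.8 (2.15-fold), and Psmb7, the trypsin-like subunit, at 83.7 and 40.9 (2.04-fold). The 4 subunits without a proteolytic site differed in the same direction. Psmb4 stood at 108 and 50.6 (2.14-fold), Psmb2 at 98.5 and 48.1 (2.05-fold), Psmb1 at 169 and 98.8 (1.71-fold) and Psmb3 at 64.9 and 42.4 (1.53-fold). The 7 genes had a median difference of 1.03 and an SD among them of 0.29. None passed 3-fold and 5 passed 2-fold in cortex, against 9.41% and 16.4% of all genes. Among equally bright genes, from 45.5% (for Psmb1) to 79.3% (for Psmb5) had a lower difference. Psmb10, which replaces Psmb7 in the immunoproteasome, was near equal (6.12 and 5.76). The left-out immunoproteasome genes Psmb8 (0.244 and 0.334) and Psmb9 (0.281 and 0.183) were at the floor on both arrays, so no difference can be given for them.

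The differences of the 7 common beta subunits and the 7 common alpha subunits did not overlap. The lowest beta value (Psmb3, 0.61) lay 0.07 above the highest alpha value (Psma5, 0.54), and the medians lay 1.04 apart. The separation between neighbours is far under the 0.59 spread between probes, and with Psmb10 among the beta genes the groups overlap. A constant factor between the arrays cannot change this order. After quantile normalization the gap was 0.06 with medians 1.12 apart, and after a loess correction on brightness it was 0.03 with medians 1.09 apart. The size of the group medians did depend on scaling, and so did the sign of some single genes. The beta median was 0.26 after quantile normalization, 0.36 after loess and 0.10 after centring on 63 ribosomal protein genes, and the alpha median was -0.85, -0.73 and -0.94. Psmb1 and Psmb3 were below 0 after quantile normalization and after ribosomal centring, and Psmb1 also after loess, while Psmb2, Psmb4, Psmb5, Psmb6 and Psmb7 were above 0 in each of these 4 scalings. Psma1, Psma2, Psma4 and Psma7 were below 0 in each of them. Against equally bright genes 6 of the 7 beta subunits lay on the cortex side (median deviation 0.39), with Psmb1 at -0.08. No alpha subunit did (median deviation -0.68). Subunits are not replicates, and these counts describe 2 arrays.

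**Figure D3:**
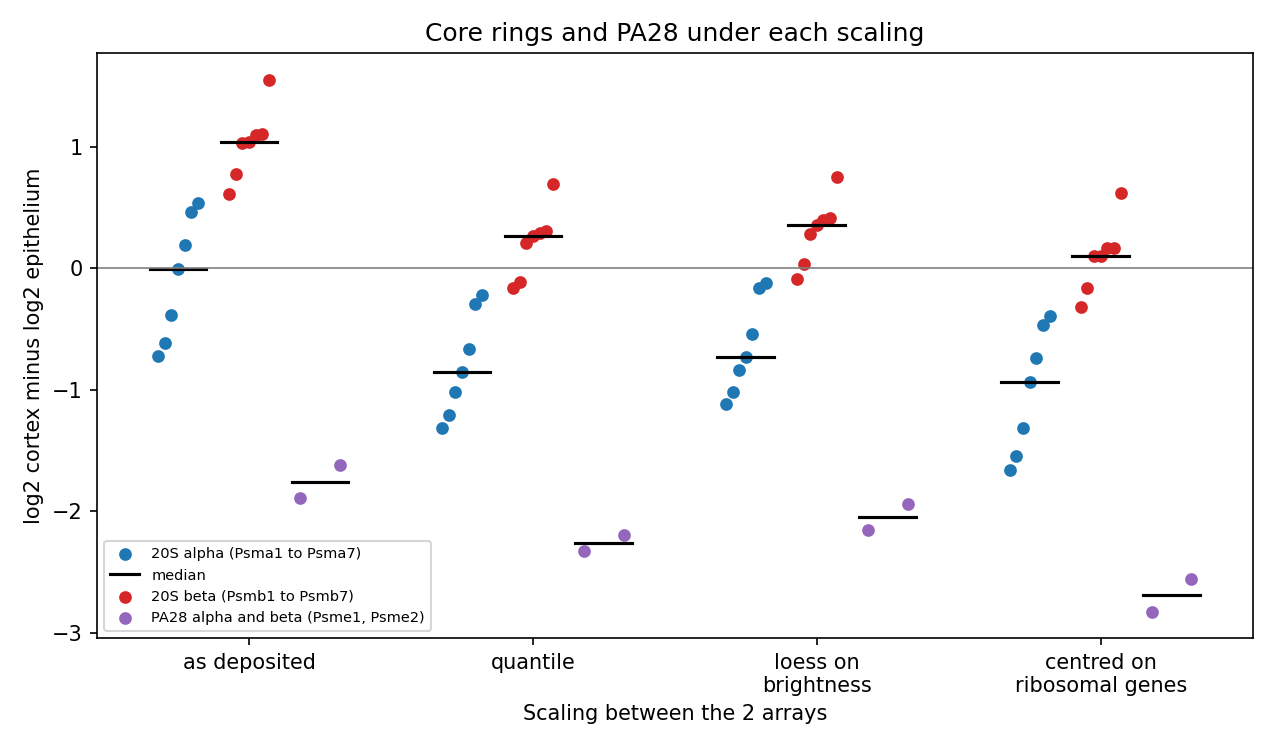
Difference between the arrays (vertical, log2) of Psma1 to Psma7, Psmb1 to Psmb7, and Psme1 and Psme2 under each of 4 scalings (horizontal); points are genes and black lines are medians. The beta genes lie above the alpha genes in each scaling, with medians at least 1.04 apart, and both PA28 genes lie below all of them.

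The ATPases of the base, a ring that unfolds substrates and opens the core, were all brighter in cortex with the deposited scaling. Of all genes above the floor on both arrays, 51.0% were brighter in cortex. Psmc4, at 138 in cortex against 40.4, passed the limit with 3.41-fold. Psmc5 stood at 73.9 and 28.0 (2.64-fold). Psmc1 (30.1 and 19.3), Psmc3 (84.4 and 56.6) and Psmc6 (31.4 and 24.8) differed by 1.56-fold, 1.49-fold and 1.27-fold. The 5 genes therefore ran from 0.34 to 1.77, with a median of 0.64, although they encode neighbours in 1 ring. Relative to equally bright genes Psmc4 and Psmc5 lay 1.07 and 0.90 higher, and Psmc3 (-0.06) and Psmc6 (0.11) lay close to 0. Psmc4 and Psmc5 were the ATPase genes brighter in cortex in each of the 4 scalings, and Psmc4 no longer passed 3-fold after quantile normalization (0.98), loess (1.07) or ribosomal centring (0.84).

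The other base subunits are the large scaffolds Psmd1 and Psmd2 and the ubiquitin receptor Psmd4. Psmd1 stood at 168 and 81.8 (2.06-fold brighter in cortex), Psmd4 at 75.5 and 44.6 (1.69-fold) and Psmd2 at 15.3 and 14.1 (1.08-fold). Their deviations from equally bright genes were small, from 0.04 to 0.27. Sem1, a small lid subunit whose symbol lies outside the rule, was near equal at 122 and 117.

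The lid genes were spread on both sides of 0. Psmd3, a scaffold of the lid, stood at 74.4 in cortex and 21.5 in epithelium, which at 3.46-fold was the largest difference in cortex among the members. Psmd6, also a scaffold, stood at 91.0 and 44.3 (2.05-fold), Psmd13 at 25.0 and 15.1 (1.65-fold) and Psmd8 at 44.5 and 33.2 (1.34-fold). The deubiquitinase Psmd14 and its partner Psmd7, which together cut the ubiquitin chain from the substrate, were near equal as deposited. Psmd14 stood at 20.8 and 22.7, and Psmd7 at 28.0 and 29.8. After quantile normalization, loess and ribosomal centring the difference of Psmd14 was -0.53, -0.35 and -1.06. That of Psmd7 was -0.61, -0.43 and -1.02. Psmd12 was 1.52-fold brighter in epithelium (24.7 and 37.6). It is the only member with a second probe, which differed by 2.03-fold in the other direction (1.96 and 0.964), so the direction of Psmd12 is not settled. Psmd11 lay below the floor on each array (0.472 and 0.0771). The deviation from equally bright genes was 1.30 for Psmd3 and -0.94 for Psmd12. Like Psmc4, Psmd3 stayed brighter in cortex in each scaling but under 3-fold after quantile normalization (1.24), loess (1.31) and ribosomal centring (0.86).

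**Figure D4:**
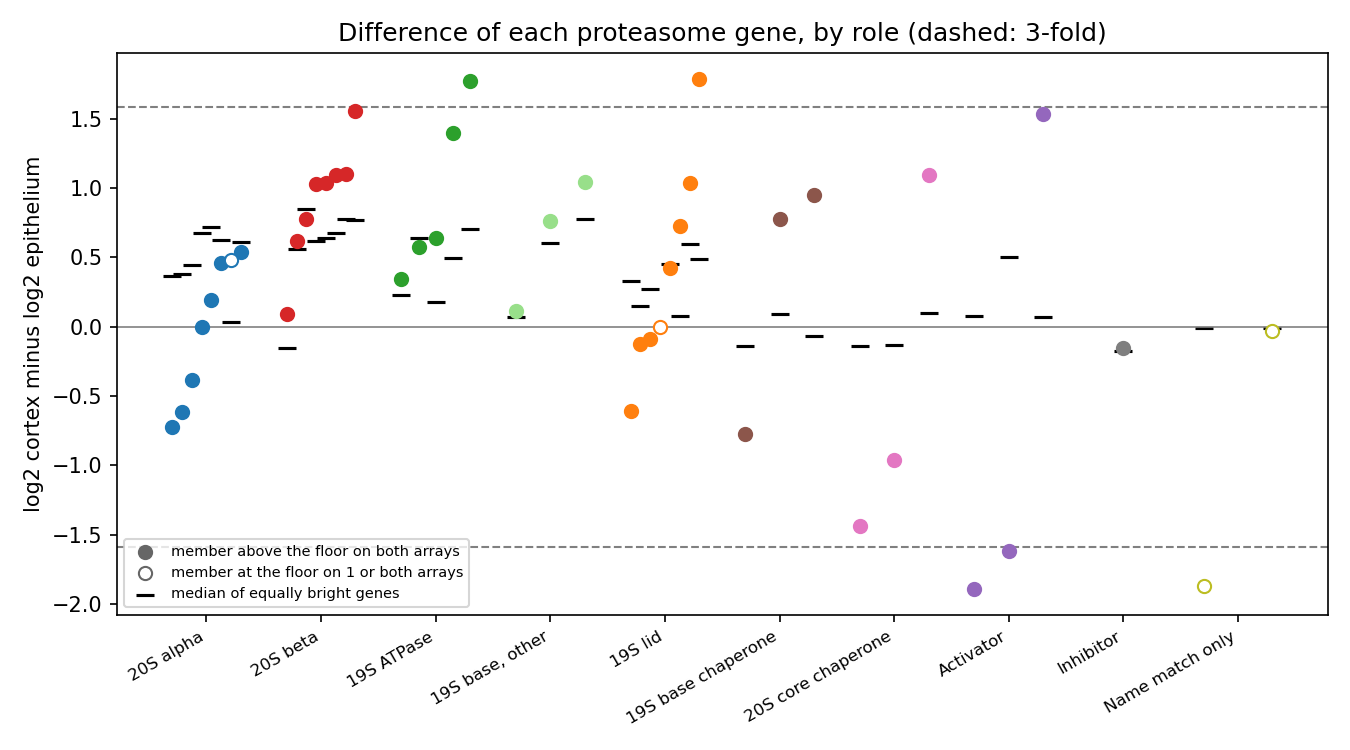
Difference between the arrays (vertical, log2) of each proteasome gene, by role (horizontal); open points mark genes at the floor on 1 or both arrays, short black lines mark the median of equally bright genes, and dashed lines mark 3-fold. Psmd3 and Psmc4 lie above the upper dashed line, and Psme1, Psme2 and Psmc3ip below the lower one.

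The activators showed the widest contrast. Psme1 and Psme2 encode the alpha and beta subunits of PA28, an interferon-inducible ring that opens the core without ATP or ubiquitin. Psme1 stood at 26.3 in cortex and 80.8 in epithelium, 3.07-fold higher in epithelium and just past the limit. Psme2 stood at 6.47 and 24.0, 3.71-fold higher in epithelium. Psme3 encodes PA28 gamma, a nuclear activator of the same fold, and differed the other way, with 21.0 in cortex and 7.26 in epithelium (2.89-fold, just under the limit). Among equally bright genes 3.96% had a lower difference than Psme1 and 6.13% a lower one than Psme2, and 82.5% had a lower one than Psme3. The calls of Psme1 and Psme2 held in each of the 4 scalings, where their differences ran from -1.62 to -2.55 and from -1.89 to -2.83. Ribosomal centring lowers cortex values and so cannot remove a call in epithelium. Quantile normalization and loess also moved both genes toward epithelium, so these scalings did not put the 2 calls to a test. Psme3 stayed above 0 in each of them, down to 0.60 after ribosomal centring. Psme1 and Psme2 are also near neighbours on chromosome 14 in the RefSeq annotation, with 1 protein-coding gene between them. Psmf1, an inhibitor of the core, was dim and near equal (1.78 and 1.98).

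Assembly chaperones also lay on both sides. Psmg1 and Psmg2 form a dimer that builds the alpha ring, yet Psmg1 was brighter in cortex (25.0 and 11.7, 2.13-fold) and Psmg2 in epithelium (4.40 and 8.55, 1.94-fold). Psmg3, of a second such dimer, was 2.70-fold brighter in epithelium (3.10 and 8.39). The directions of all 3 were the same in each of the 4 scalings. Pomp, which guides the beta subunits onto the alpha ring, was 3.36-fold higher in cortex (252 and 74.9) but under 3-fold after quantile normalization, loess or ribosomal centring. The chaperones of the base ran from Psmd9 (11.5 and 5.98, 1.93-fold brighter in cortex) and Psmd10, or gankyrin (23.6 and 13.8, 1.71-fold), to Psmd5 (3.38 and 5.79, 1.71-fold brighter in epithelium). The name match Psmc3ip was below the floor in cortex and stood at 1.82 in epithelium, at least 3.65-fold higher there. With a floor at the array median it fell short of 3-fold. Psme3ip1 was at the floor in cortex and at 0.509 in epithelium.

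Genes that work with the proteasome were taken from a separate list, of which 16 were measured. Pomp passed 3-fold in cortex, Usp14 passed in epithelium and 14 did not pass, with a median difference of -0.13. Ubqln1, a shuttle of ubiquitin-tagged proteins, is among the 14 by its probe of highest mean log2 value (1.17-fold brighter in cortex), but another probe stood at 22.7 in cortex and was 3.78-fold brighter there. A further probe stood at 1.76 in cortex and below the floor in epithelium. Its difference is therefore not settled. Usp14, a deubiquitinase that docks on the base, stood at 1.79 in cortex and 5.86 in epithelium (3.27-fold), and the other docking deubiquitinase, Uchl5, at 8.14 and 11.3. The unfoldase gene Vcp was 2.26-fold brighter in cortex (119 and 52.9), and its cofactor Ufd1 1.53-fold. Nfe2l1, the transcription factor that raises proteasome genes when the protease is blocked, was dim and brighter in epithelium (0.591 and 1.56, 2.64-fold). The 4 genes of the Nfe2l1 and Nfe2l2 pathways, with Ngly1 and Keap1, were all brighter in epithelium, by 1.20-fold to 2.64-fold, and none passed. Of the ubiquitin-activating enzyme genes, 2 were measured. Uba6 stood at 1.85 and 5.32, with a second probe near equal (2.79 and 2.71), so its difference is not settled. Uba1y stood at 6.53 and 2.96.

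The differences were also set against the spread between probes. Equally bright genes are here the 1636 other genes within the quartiles of the members. Beyond the median SD of 0.59 lay 19 members in the direction of cortex, where 24% of all genes and 38.4% of the equally bright genes lay. In the direction of epithelium lay 9 (22.4% and 22.2%). Beyond the pooled SD of 1.10 lay 6 members in cortex, against 14.8% of all genes and 25.6% of the equally bright ones, namely Psmd3, Psmc4, Psmb5, Psme3, Psmc5 and Psmb6. In epithelium 4 did, against 13.8% and 12.0%, namely Psme2, Psmc3ip, Psme1 and Psmg3. Over the deposited scaling, quantile normalization, loess and ribosomal centring, the probes used for 13 members were brighter in cortex each time (17.2% of all genes) and those for 14 in epithelium each time (33.8% of all genes). The 14 include Psmd12, whose second probe differs in the other direction, and Psme3ip1, which lies at the floor. Ribosomal centring lowers cortex values, so it cannot take a gene out of the 14.

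Promoter sequences were read from RefSeq (build GRCm38.p6) for the members, since proteasome genes are known targets of Nfe2l1 through antioxidant response elements. The windows run from 250 bases before to 50 after the annotated start, and 34 of the 42 proteasome genes had at least 1. They were searched on both strands for TGACNNNGC (antioxidant response element core), CCAAT and the interferon-stimulated response element (GAAA, any 2 bases, GAAA), which do not overlap in the sequences shown. TGACNNNGC occurred in 5 of the 34 genes (14.7%), against 14.0% of all 27025 genes with a window. CCAAT occurred in 11 (32.4% against 41.1%) and the interferon element in 4 (11.8% against 3.99%). The genes with TGACNNNGC were Psmb5, Psmb6, Psmc6, Psmd9 and Psmd12, with differences of 1.55, 1.10, 0.34, 0.95 and, for the brighter probe of Psmd12, -0.61. Those with the interferon element were Psmb3, Psmd4, Psmd9 and Psme1, with differences of 0.61, 0.76, 0.95 and -1.62. The windows of Psme2 held no match to it. CCAAT occurred in 5 of the 7 common alpha subunit genes with a window (Psma1, Psma2, Psma3, Psma6 and Psma7) and in 1 of the 5 beta subunit genes with one (Psmb3). These 5 beta genes include Psmb10, while Psmb1, Psmb2 and Psmb7 had no window, so the 2 sets are not alike. No proteasome alpha gene had TGACNNNGC, and 2 beta genes did. A match is a description of letters in the window and shows no binding. Shown are the windows up to 30 bases after the start, in lower case with matches in capitals, for Psmb5 and Psmd9, the TGACNNNGC genes furthest to the cortex side of equally bright genes, for Psmd12, the 1 whose brighter probe lies on the epithelial side, and for Psme1, whose match to the interferon element lies on the reverse strand 9 to 18 bases after the start. In Psmb5 the match lies 47 to 39 bases before the start, in Psmd9 31 to 23 bases, and in Psmd12 247 to 239 bases on the reverse strand. Psmd9 also holds the interferon element, 159 to 150 bases before the start.
Psmb5, chr14:54617966-54618245, - strand: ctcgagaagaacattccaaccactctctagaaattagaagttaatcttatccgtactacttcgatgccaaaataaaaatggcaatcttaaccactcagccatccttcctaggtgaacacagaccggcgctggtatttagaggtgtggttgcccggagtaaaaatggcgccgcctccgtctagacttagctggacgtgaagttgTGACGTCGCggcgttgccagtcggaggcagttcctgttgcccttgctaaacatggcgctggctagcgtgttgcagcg
Psmd9, chr5:123227940-123228219, + strand: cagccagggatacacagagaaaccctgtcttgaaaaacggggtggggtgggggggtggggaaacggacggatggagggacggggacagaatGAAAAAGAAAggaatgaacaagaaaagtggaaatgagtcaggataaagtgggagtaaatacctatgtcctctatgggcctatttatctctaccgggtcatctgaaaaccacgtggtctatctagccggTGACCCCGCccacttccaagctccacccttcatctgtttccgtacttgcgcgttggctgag
Psmd12, chr11:107479278-107479557, + strand: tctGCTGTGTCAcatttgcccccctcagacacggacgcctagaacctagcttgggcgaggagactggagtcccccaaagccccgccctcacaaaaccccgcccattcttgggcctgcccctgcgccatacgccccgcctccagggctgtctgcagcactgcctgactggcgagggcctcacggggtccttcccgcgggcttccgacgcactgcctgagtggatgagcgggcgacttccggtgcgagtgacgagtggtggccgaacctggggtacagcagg
Psme1, chr14:55578244-55578523, + strand: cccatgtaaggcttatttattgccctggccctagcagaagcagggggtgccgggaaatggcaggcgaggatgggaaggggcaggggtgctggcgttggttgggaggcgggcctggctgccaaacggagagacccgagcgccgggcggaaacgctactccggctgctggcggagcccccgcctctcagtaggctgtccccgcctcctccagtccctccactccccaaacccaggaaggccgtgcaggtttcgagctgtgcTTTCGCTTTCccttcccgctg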

How the data were processed

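The authors deposited 1 intensity per probe and array for 19819 probes of a CodeLink mouse bioarray. Per the labels, biotin-labelled complementary RNA was hybridized, stained with a Cy5 conjugate and read with the CodeLink software. How these intensities were scaled and background-corrected is not stated in the labels. Medians were 0.998 on both arrays, and 161 cortex and 74 epithelium values were below 0. Missing values (87 and 97) were left out, and no spot flag was used. Platform annotation gave 15120 probes 1 symbol, 38 several and 4661 none, and all 44 members matched the RefSeq gene table of GRCm38.p6 by Entrez identifier. Values below the floor (0.499) were raised to it before log2, and the probe with the highest mean log2 value stood for a gene. Where 1 array alone exceeded the floor the fold is a bound ("at least"), and where neither did the difference was set to 0. Antisense or paralog cross-reaction of probes was not tested.

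Every member is named, with its other probes; of the partner list, the genes past 3-fold and the ubiquitin genes are named, and the others named there were chosen after their values were seen. The members, lists and rules were chosen with earlier results of these data known, and the interferon element was added after values were seen. The procedure was tested on simulated data with known fold changes. Alternative settings were quantile normalization, loess (span 0.3), centring on ribosomal protein genes, a floor at the array median, no floor, the mean over probes, and brightness windows of 0.25 and 1. Python 3.11.15 was used with numpy 2.4.6, pandas 2.3.3, statsmodels 0.14.6 and matplotlib 3.10.9.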

Additional observations from a re-analysis of the deposited data

How the results depend on the processing

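Scaling moved the counts. At least 3-fold higher in cortex were 0 members after quantile normalization, loess or ribosomal centring, with 1 array per group and so no test or p-value. At least 3-fold higher in epithelium were 7 after ribosomal centring, which shifted the median of genes measured on both arrays by -0.80 and took the share of all calls that lay in cortex from 53.5% to 18.5%. The shift was -0.14 after quantile normalization. At 2-fold, members higher in cortex numbered 2 after quantile normalization, 4 after loess and 0 after ribosomal centring, and members higher in epithelium 9 after quantile normalization and 13 after ribosomal centring. The median difference of members became -0.13 and -0.34 after these last 2 methods. Of the partner genes, 0 passed in cortex after any of the 3 scalings, while 0 passed in epithelium after loess and 4 after ribosomal centring. The deviation from equally bright genes ran from 0.03 to 0.07 over all alternatives, and the floor, probe, window and name-match alternatives left each of these counts and medians within the limits set (a factor of 1.5, or 0.59 on the log2 scale). Leaving out the 2 name matches, an alternative chosen after seeing the data, gave 2 members in each direction at 3-fold. No paired analysis was possible because each group has 1 sample. Signal over background and the number of arrays limit the precision: Psmd11 and Psma8 lay at or near the floor.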
